A study of Mus musculus with 6 samples.

Results

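Tanycytes were the 296 cells, of 9449 that passed the quality limits, that met a marker rule in Drop-seq libraries of mouse hypothalamus. Drop-seq is a droplet method in which the 3' end of each captured transcript is tagged with the barcode of its cell and with a random molecular tag, the unique molecular identifier (UMI). A cell passed if it showed 300 genes or more and had no more than 20% of its UMIs in genes of the mitochondrial genome, which 9449 of 13994 barcodes did. Passing cells were chosen by their own UMI counts of marker genes. A tanycyte had at least 2 UMIs summed over Rax, Col23a1, Crym, Lhx2 and Dio2, of which at least 1 lay in Rax or Col23a1. At most 1 UMI was allowed over 7 genes of other types, namely Snap25 and Syt1 (neurons), Mog (oligodendrocytes), C1qa (microglia), Cldn5 (endothelium) and Ccdc153 and Tmem212 (ependymal cells).

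The 6 libraries came from C57BL/6J mice aged 8 weeks. WT1, WT2 and WT3 were wild type, while KO1, KO2 and KO3 carried a knockout of IDOL, a ubiquitin ligase encoded by Mylip that marks lipoprotein receptors for breakdown. The labels give no further allele or treatment for either group, and they do not say which part of Mylip was deleted. Whether a library stands for a single animal is not stated either, nwhich of the 2 preparation days it belonged to, so p-values here measure the spread between libraries, which may be technical.

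Tanycytes are elongated glial cells that line the floor and lower walls of the third ventricle and send a process into the hypothalamus or to the median eminence. They share ventricular contact with ciliated ependymal cells and keep features of radial glia. They are known for activating thyroid hormone, for sensing and passing on nutrients and hormones between the cerebrospinal fluid and the brain, and for their barrier at the median eminence. Ventral (beta) tanycytes contact the median eminence, and dorsal (alpha) tanycytes lie higher on the ventricle wall.

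The tanycytes numbered 86, 43 and 24 in WT1 to WT3 and 53, 61 and 29 in KO1 to KO3. Together they held 879360 UMIs, with 54114 to 275754 per library and a median of 1521.5 UMIs and 986.5 genes per cell. The deepest cell of a library held from 9.41% of its tanycyte UMIs in WT1 to 26.0% in KO2. Of the members, 151 had UMIs of both Rax and Col23a1, 121 of Col23a1 without Rax and 24 of Rax without Col23a1. The median member had 4 UMIs over the 5 genes, with quartiles of 3 and 9 and a maximum of 136. One UMI of a gene of another type was present in 26 members and none in 270. Scrublet called 116 of the passing cells doublets (1.23%) and none of the members. No passing barcode was shared between libraries.

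KO3 stood apart from the other libraries. In 7 members, 6 of them from KO3 and 1 from WT2, there were at least 10 UMIs of Ptgds, which encodes a prostaglandin synthase secreted in the brain, or at least 2 UMIs summed over Dcn, Lum and Col1a1, genes of the extracellular matrix of fibroblasts. All 7 entered through Col23a1 alone, with 2 to 4 UMIs and no UMI of Rax, Crym, Lhx2 or Dio2. The 6 cells of KO3 had 18967, 16893, 5743, 2318, 1936 and 1465 UMIs, which together made up 48.1% of the tanycyte UMIs of that library. Their Ptgds counts were 704, 495, 202, 253, 193 and 1 in the same order. Summed over the list of pituitary, fibroblast and blood genes, the level was 29.0, 69.9 and 0 counts-per-million of all tanycyte UMIs (CPM) in WT1 to WT3 and 5.93, 23.8 and 1028 CPM in KO1 to KO3. With the 7 cells left out, no library exceeded 36.1 CPM. This threshold was chosen after the data were seen, and the cells are given no name here. Several results that rest on KO3 are reported with them and without them (289 cells). Members low in the listed tanycyte genes outside the rule remained. In KO3, kept cells of 3858 and 3054 UMIs had 0% and 0.033% of their UMIs in those genes. A kept cell of KO1 with 927 UMIs also had 0%.

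The genes of the rule are described without a test, because they chose the cells. Rax, a homeobox factor of the developing eye and hypothalamus, stood at 595, 603 and 721 CPM in WT1 to WT3 and at 593, 488 and 366 CPM in KO1 to KO3. Col23a1, a transmembrane collagen (chr11:51289920-51583918 on GRCm38, plus strand), stood at 1439.7, 1538 and 1349 CPM in the WT libraries and at 1459.5, 1861 and 1180.1 CPM in the KO libraries. KO3 was lowest for both, and without the 7 cells its levels were 706 CPM for Rax and 1981 CPM for Col23a1. Crym, a binding protein of thyroid hormone (chr7:120186380-120202111), was detected in 115 members, and Lhx2, a LIM homeobox factor (chr2:38339281-38369733), in 101. Crym ranged from 214 CPM in KO1 to 616 CPM in WT1, and Lhx2 from 142 CPM in KO3 to 249 CPM in KO1. Dio2, the deiodinase that makes active thyroid hormone (chr12:90724552-90738438), was detected in 103 members. It stood at 341, 446 and 277 CPM in the WT libraries and at 386, 125 and 20.3 CPM in the KO libraries. The groups overlapped, and KO3 still had only 39.2 CPM without the 7 cells. Of the members, 45 carried UMIs of 1 of the 5 genes, 119 of 2, 62 of 3, 53 of 4 and 17 of all 5.

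Genes that the rule did not use are described next. The first was on none of the gene lists. It was picked from these data for its difference from astrocytes, so it is no independent check. 6330403K07Rik, a protein-coding gene of little known function (chr11:71031941-71033513, minus strand), had a UMI in 272 of the 296 members and in 271 of the 289 left without the 7 cells. Of those 289, the cells with a UMI were 82 of 86, 42 of 42 and 23 of 24 in WT1 to WT3 and 51 of 53, 56 of 61 and 17 of 23 in KO1 to KO3, so KO3 was lowest even then. Its level was 12170.3, 11611 and 12973 CPM in WT1 to WT3 and 9327, 12129.6 and 6521 CPM in KO1 to KO3. KO3 was lowest, and reached 12555 CPM without the 7 cells. The gene was not confined to tanycytes, since it averaged 1688 CPM in neurons and 1007 CPM in all passing cells outside the tanycytes. The 18 measured tanycyte genes outside the rule summed to 16732, 15953 and 15763 CPM in the WT libraries and to 16862, 15822 and 9461 CPM in the KO libraries. The same sum averaged 3823 CPM in astrocytes, 12357 CPM in ependymal cells and 910 CPM in neurons. Tanycytes thus stood nearest to ependymal cells in this total, but not gene by gene. Of the 10 members tested against ependymal cells below, 8 were higher and 2 lower in tanycytes, Rarres2 among the lower at a log2 difference of -3.99.

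The cells near the threshold differed in that sum. The 70 members with 2 rule UMIs reached 12591 CPM, the 47 with 3 reached 9697 CPM and the 179 with 4 or more reached 16734 CPM. These levels include the 7 cells with Ptgds or Dcn and were not computed without them. Cells of KO3 with 18967, 16893 and 2318 UMIs were among the members with 3. They had 0.074%, 0.089% and 0.259% of their UMIs in these genes, so the lower level of that class rests in part on them. Just outside, the 140 cells with a single UMI of Rax or Col23a1 and no other rule UMI had 6257 CPM. The 21 cells with at least 2 rule UMIs but neither Rax nor Col23a1 had 7148 CPM, and the 12 cells kept out by 2 UMIs of other types had 19256 CPM. The 8614 passing cells with no rule UMI had 2120 CPM.

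**Figure D1:**
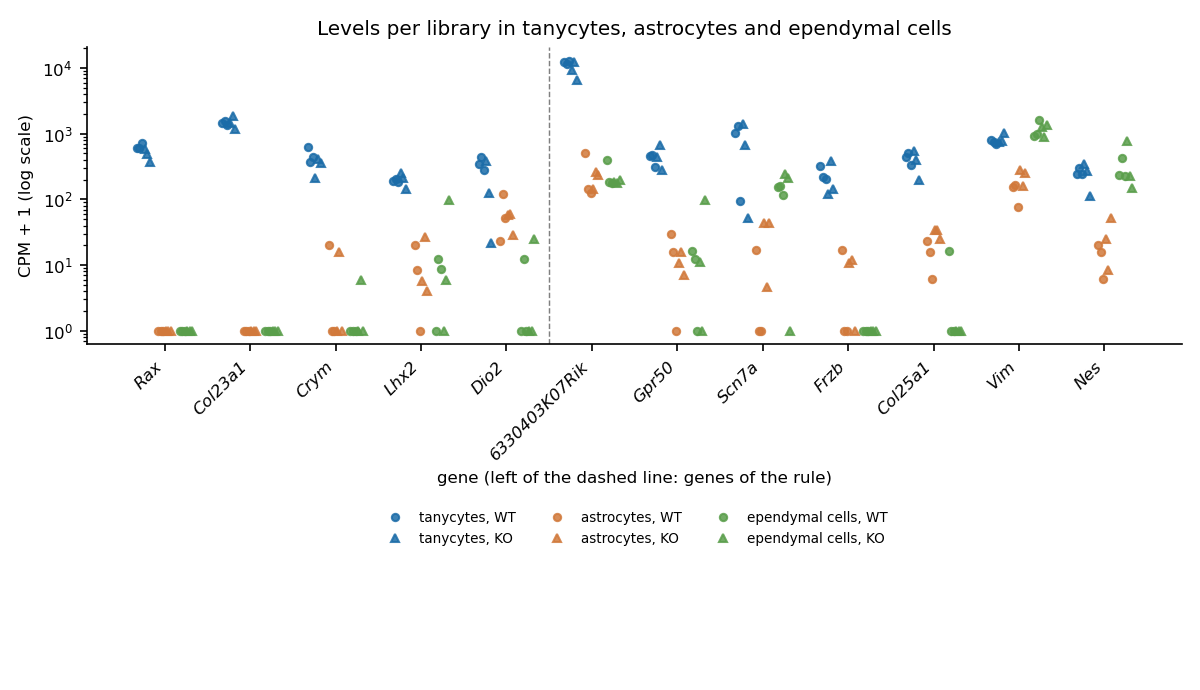
Level of 12 genes in tanycytes, astrocytes and ependymal cells. The vertical axis is CPM of all UMIs of a cell set plus 1, on a log scale, each point is 1 library, circles are WT and triangles KO, and the 5 genes left of the dashed line belong to the rule, so that Rax and Col23a1 are at 0 in the other sets by construction. 6330403K07Rik lies between 6521 and 12973 CPM in all 6 tanycyte sums, above every astrocyte and ependymal sum. Neurons, which are not drawn, averaged 1688 CPM of it.

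**Figure D2:**
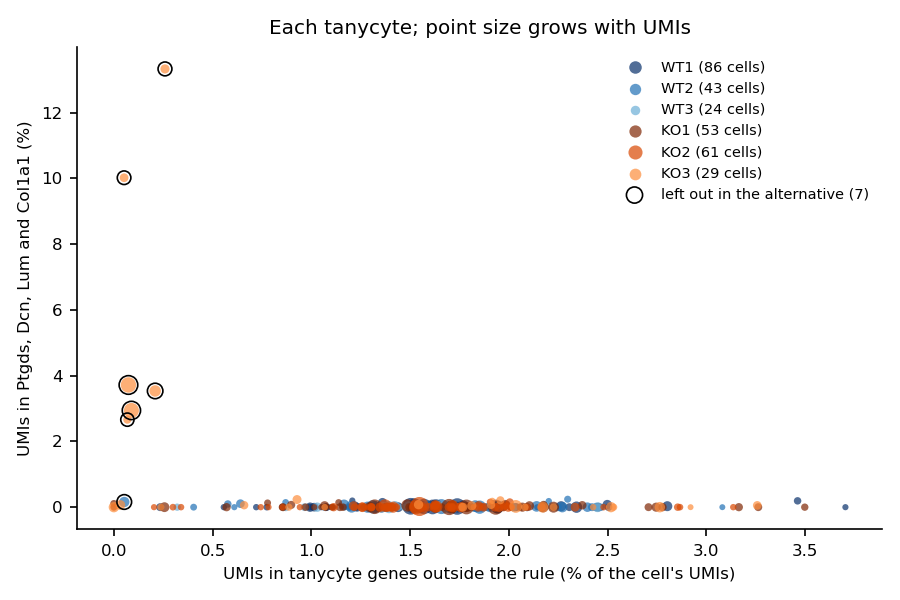
Each of the 296 tanycytes by the percentage of its UMIs in tanycyte genes outside the rule (horizontal axis) and in Ptgds, Dcn, Lum and Col1a1 together (vertical axis). The 7 circled cells, 6 of them from KO3, are those reported with and without.

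Among genes of thyroid hormone handling, Tshr, the thyrotropin receptor, stood at 170.4, 236 and 148 CPM in the WT and at 107, 214 and 20.3 CPM in the KO libraries. The groups overlapped, and KO3 was lowest. Dio3, the deiodinase that inactivates thyroid hormone, was at 36.3, 0 and 37.0 CPM in the WT and at 0, 23.8 and 0 CPM in the KO libraries, a few UMIs in all.

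Gpr50, a G-protein-coupled receptor related to the melatonin receptors (chrX:71663667-71669257), stood at 461, 481 and 314 CPM in the WT and at 439, 672 and 275 CPM in the KO libraries. Frzb, a secreted Wnt antagonist (chr2:80411970-80447625), stood at 326, 218 and 203 CPM and at 119, 386 and 142 CPM. Scn7a, a sodium channel-like protein (chr2:66673425-66784914), split the libraries differently, at 1029.9, 1328 and 92.4 CPM in WT1 to WT3 and at 1388, 672 and 50.9 CPM in KO1 to KO3. WT3 and KO3 were low and the other 4 high, in both genotypes. Fndc3c1, a fibronectin type III protein, was low in WT3, KO2 and KO3, at 294, 472 and 129 CPM in the WT and 273, 107 and 0 CPM in the KO libraries.

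Tanycytes were set against astrocytes, the other glia with radial features in this tissue. Astrocytes were 1640 passing cells with at least 2 UMIs over Aqp4, Gja1, Agt and Gjb6, no Rax or Col23a1 UMI and the same limit on other types. They were shallower, with a median of 655 UMIs per cell. Counts were summed per library and cell set and tested with edgeR with the library as a block, and genes of either rule were left out. The cells had been sorted by markers, so the test describes what else differed between marker-defined sets. Of 3687 genes tested, 746 (20.2%) were higher in tanycytes and 776 (21.0%) lower at an adjusted p of 0.05, and the median gene differed by 0.07 on the log2 scale. After removal of the 7 cells 763 were higher and 861 lower of 3759.

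Tanycytes were higher in 6330403K07Rik, in Gpr50 and in single genes of Wnt signalling and of cilia. 6330403K07Rik averaged 10789 ± 2429 CPM (SD, n = 6 libraries) against 235 ± 145 CPM in astrocytes, a log2 difference of 5.37 ± 0.26 (SE; edgeR adjusted p = 7.08e-11). Gpr50 averaged 440.1 ± 141 against 12.4 ± 9.81 CPM, a log2 difference of 4.79 ± 0.28 (edgeR adjusted p = 6.01e-10). For both genes the lowest tanycyte library lay above the highest astrocyte library. Frzb was 4.78 higher on the log2 scale, Fzd5, a Wnt receptor, 3.85 and Col25a1, a transmembrane collagen, 3.79. Of the 4 tested hormone and metabolic receptors 1, Gpr50, was higher and 2 were lower, beside 20.2% and 21.0% of all genes tested. Higher as well were Dynlrb2, a dynein light chain of cilia, at 3.81, and Iqcg, a protein of ciliary axonemes, at 3.84. Scn7a entered the test only without the 7 cells and was then 4.86 ± 0.38 higher.

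Of the 11 tested tanycyte genes outside the rule, 8 were higher and 2 lower, with a median log2 difference of 3.18. The 2 lower were Slco1c1, a thyroid hormone and organic anion transporter, which averaged 9.88 CPM in tanycytes against 155 CPM in astrocytes (log2 difference -4.12), and Cldn10, a claudin, at -0.99. Cldn10 ranged from -2.55 in KO3 to 0.24 in KO1 between libraries and lost its call among cells with at least 1000 UMIs (-0.35, edgeR adjusted p = 0.453) or at least 500 genes (-0.56, edgeR adjusted p = 0.189). The 5 tested ependymal genes were all higher in tanycytes, with a median of 3.48. Among them Rsph1, a radial spoke protein of motile cilia, stood at 175 ± 36.3 against 9.56 ± 8.20 CPM, and Foxj1, the master factor of motile cilia, at 134 ± 36.0 against 11.9 ± 8.87 CPM. Free RNA from other cells can carry such UMIs. The share of it in these sums was not tested, and the ependymal list as a whole summed to 844 to 1796 CPM in the 6 tanycyte sums, 122 to 201 CPM in the astrocyte sums and 5683 to 8502 CPM in ependymal cells.

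Radial glia genes split. Of 17 tested, 8 were higher and 9 lower, with a median of -0.42, beside 20.2% higher and 21.0% lower over all genes tested. Vim, an intermediate filament, averaged 799 ± 115 CPM in tanycytes against 179 ± 72.1 CPM in astrocytes, a log2 difference of 1.97 ± 0.17 (edgeR adjusted p = 6.43e-08). Nes, the intermediate filament nestin, was 3.23 higher and Hes1, a Notch target, 2.70 higher. The fatty acid binding protein Fabp7 was lower by a log2 difference of -3.80 and the filament Gfap of -3.73. Tanycytes therefore carried more of the filaments Vim and Nes and less of Gfap than the astrocytes.

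Lipid genes were mostly lower in tanycytes, where 21.0% of all genes tested were lower. Of 7 tested genes of cholesterol synthesis, 6 were lower and none higher, with a median log2 difference of -1.33. Hmgcs1, the enzyme that makes HMG-CoA, was among the lower genes, at -1.44 ± 0.23 (edgeR adjusted p = 8.04e-05). Sqle, squalene epoxidase, was at -0.65 and did not pass (edgeR adjusted p = 0.0615). Of 8 tested targets of the sterol receptor LXR, 6 were lower, with a median of -1.17. Scd1, a fatty acid desaturase, averaged 52.8 ± 15.7 against 287 ± 52.4 CPM, and Apoe, the main lipid carrier of the brain, differed by -0.97. Of 16 tested genes of fatty acid binding and oxidation, 11 were lower and 1 higher, with a median of -1.10. The enzyme that was higher was Acaa2, of the last step of mitochondrial beta-oxidation, at 218 ± 45.6 against 94.4 ± 14.5 CPM. The acyl-CoA synthetases Acsbg1 and Acsl3 were lower, at -3.72 and -2.67.

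Other groups moved in both directions, beside 20.2% higher and 21.0% lower over all genes tested. Of 13 tested genes of glucose handling, 1 was higher and 5 lower. Ldha, the lactate dehydrogenase subunit that favours lactate, was higher by 1.28, and Ldhb, the other subunit, was lower at -1.24. Of 9 growth factor genes, 2 were higher and 4 lower. Ptn, the growth factor pleiotrophin, averaged 2545 ± 793 against 1026 ± 262 CPM, and Fgfr3, a fibroblast growth factor receptor, 56.0 ± 19.6 against 779 ± 150.3 CPM. Of the 73 tested genes of cytosolic ribosomal proteins, 47 were higher and none lower, with a median of 0.53. Of the 13 tested genes of the mitochondrial genome, 11 were lower and none higher, with a median of -1.07. The 6 tested astrocyte genes were lower, and the larger examples among all genes included Itih3, a hyaluronan-binding inhibitor chain, at 34.5 ± 29.9 against 2065 ± 308 CPM, and Sparcl1, a matrix protein of astrocytes, at 803 ± 324 against 15063 ± 2419 CPM.

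All 12 immediate early genes, which respond within minutes to a stimulus and also to tissue dissociation, were higher in tanycytes, with a median of 1.94. Fos averaged 4828 ± 772 CPM in tanycytes against 1269 ± 752 CPM in astrocytes, a log2 difference of 1.89 ± 0.25 (edgeR adjusted p = 9.05e-06). Every tanycyte sum, from 3734 to 6024 CPM, lay above every astrocyte sum, from 530.5 to 2522 CPM. This holds for all tanycytes together. In the dorsal-leaning tanycytes described below, Fos lay within or below that astrocyte range in every library compared. Egr1, a zinc finger factor, was 2.04 higher, Ier2, another early response factor, 2.18 and Btg2, an antiproliferative gene, 2.47. Among cells with at least 1000 UMIs the median of the list was 1.18. The number of genes called moved with the cells used, at 1020 of 2123 tested with cells thinned to 1500 UMIs, 638 of 2044 among cells with at least 1000 UMIs and 785 of 1963 with tanycytes of at most 1 astrocyte UMI.

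**Figure D3:**
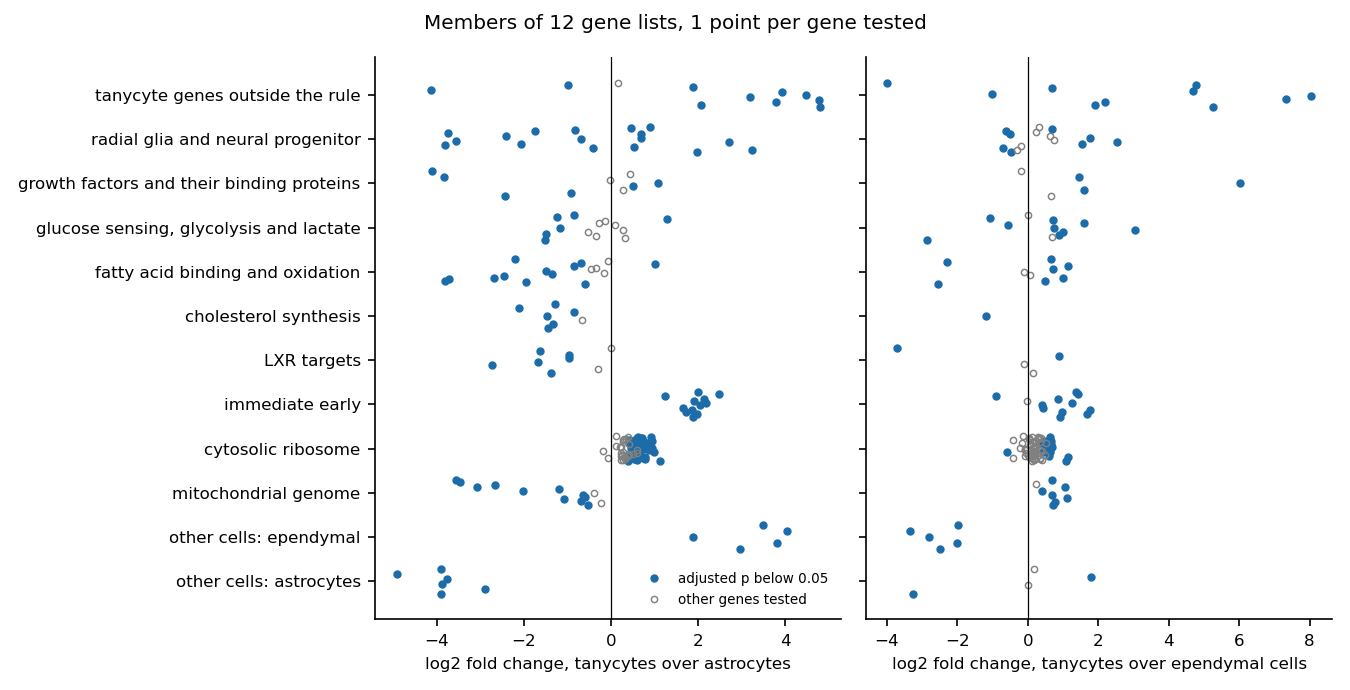
Log2 difference of every tested gene of 12 lists between tanycytes and astrocytes and between tanycytes and ependymal cells. Filled points passed an edgeR adjusted p of 0.05 and positive values are higher in tanycytes. The immediate early list lies wholly above 0 against astrocytes, and the Frzb point against ependymal cells is a fitted value, since ependymal cells had no Frzb UMI.

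The second comparison was with ependymal cells, which share the ventricular surface. They were 230 cells with at least 2 UMIs over Ccdc153, Tmem212, Foxj1 and Dynlrb2, at least 1 of them in Ccdc153 or Tmem212, no Rax or Col23a1 UMI and the same limit on the remaining types. A library held 15 to 76 of them, and 1 deep cell carried 15.6% to 43.6% of its ependymal UMIs. Of 2347 genes tested with edgeR with the library as a block, 596 (25.4%) were higher in tanycytes and 607 (25.9%) lower, with a median gene at 0.06. After removal of the 7 cells 608 were higher and 613 lower of 2345.

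Tanycytes were again higher in 6330403K07Rik, at 10789 ± 2429 CPM against 218 ± 88.8 CPM, a log2 difference of 5.74 ± 0.19 (edgeR adjusted p = 5.80e-23). Ptn, at 2545 ± 793 against 40.8 ± 8.40 CPM, was 6.03 ± 0.23 higher (edgeR adjusted p = 5.13e-21). Thrsp, a thyroid hormone responsive gene of lipid synthesis, was at 606 ± 192 against 18.7 ± 14.2 CPM, 5.28 ± 0.31 higher (edgeR adjusted p = 3.81e-16). The libraries of the 2 sets did not overlap for any of these genes. Gpr50 was 5.25 higher and Cldn10 4.77.

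Some genes had no or few UMIs on one side, so a count ratio replaces the fitted value, with an exact 95% interval that covers counting error only. Gpc3, a heparan sulphate proteoglycan, had 296 UMIs in tanycytes and 0 in ependymal cells and was at least 70.2-fold higher against a floor of 3 UMIs over the group. Frzb, with 225 UMIs against 0, was at least 53.4-fold higher. Col25a1 had 376 UMIs against 1, a ratio of 267.7 (47.8 to 10600). In the other direction Sntn, which encodes sentan of the ciliary tip, had 496 UMIs in ependymal cells and 0 in tanycytes, at least 232-fold lower in tanycytes. Stoml3, a stomatin family protein of cilia, was at least 151-fold lower and Cdhr4, a cadherin-related protein, at least 149-fold lower. Pcp4l1, a small protein with an IQ motif, averaged 13.5 ± 10.8 against 1625 ± 261 CPM, a log2 difference of -6.91 ± 0.28 (edgeR adjusted p = 3.27e-20).

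With the ependymal rule genes Foxj1 and Dynlrb2 left out, the 5 ependymal genes tested here were lower in tanycytes, with a median of -2.48. Rsph1, Fam183b and Tmem107 were tested in both comparisons, and they were higher than in astrocytes and lower than in ependymal cells. Rsph1 averaged 175 ± 36.3 CPM in tanycytes and 1281 ± 226 CPM in ependymal cells, so its level in tanycytes lay between those of the other sets. Of the 10 tested tanycyte genes outside the rule, 8 were higher and 2 lower, with a median of 3.43, which was the same with Frzb at its bound. The 2 lower were Rarres2, which encodes the adipokine chemerin, at 286 ± 86.7 against 4526 ± 811 CPM, and Mia, a small secreted protein, at 459 ± 192 against 947 ± 267 CPM. Of 14 radial glia genes, 4 were higher and 4 lower, near the 25.4% higher and 25.9% lower of all genes tested. Hes1 was higher by 2.54, and Vim, higher than in astrocytes, was lower than in ependymal cells at -0.48.

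Metabolic genes again differed by gene, beside 25.4% higher and 25.9% lower over all genes tested. Of 11 tested genes of glucose handling, 6 were higher and 3 lower. Aldoc, a brain aldolase, was at 2676 ± 1153 against 342 ± 118 CPM, and Slc2a1, the glucose transporter GLUT1, at 88.8 ± 34.6 against 698 ± 146 CPM. Of 9 fatty acid genes, 5 were higher and 2 lower, among them Dbi, the acyl-CoA binding protein, at -2.54. Apoe was higher by 0.90, while the lipid carriers Clu and Pltp were lower at -2.23 and -3.71. Of 5 growth factor genes, 3 were higher and none lower, and Igfbp5, which binds insulin-like growth factors, was higher by 1.59. The glucocorticoid receptor gene Nr3c1 was higher by 2.12.

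Of the 12 immediate early genes, 10 were higher than in ependymal cells and 1, the nuclear receptor gene Nr4a1, was lower at -0.90, with a median of 0.93. Without the 7 cells 8 were higher and 1 lower. Fos averaged 4828 ± 772 against 2823 ± 1139.9 CPM, a log2 difference of 0.90 ± 0.16 (edgeR adjusted p = 8.98e-06). In the dorsal-leaning tanycytes described below, Fos lay under that ependymal mean in every library compared. Ptgds, at 5.48 in this comparison, fell to 2.73 ± 0.42 without the 7 cells and still passed (edgeR adjusted p = 6.26e-07). Thinned to 1500 UMIs per cell, 346 of 664 genes were called.

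The tanycytes were then divided by subtype genes. Ventral genes were Frzb, Scn7a, Col25a1, Adm, Fgf10 and Mia, and dorsal genes Cd59a, Slc17a8, Vcan and Agt. Sprr1a and Pdzph1 were listed as well and were not analysed here. More ventral than dorsal UMIs were found in 168 cells and more dorsal than ventral in 71, and 57 were balanced, 50 of them without a UMI of either list. The division is used here as a range, and whether the cells form separate types was not tested. Within 1 UMI of the cut lay 119 cells, and 71 cells had UMIs of both lists. The lean also moved with depth, with a median of 2925 UMIs in cells with both lists and of 852.5 UMIs in cells with neither.

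In WT1 to WT3 the tanycytes held 707, 304 and 87 ventral UMIs and 120, 53 and 32 dorsal UMIs. In KO1 to KO3 they held 452, 357 and 67 ventral and 88, 110 and 33 dorsal UMIs. The ventral share was 85.5%, 85.2% and 73.1% in the WT and 83.7%, 76.4% and 67.0% in the KO libraries. It averaged 81.3 ± 7.05% (SD, n = 3) in WT and 75.7 ± 8.38% in KO, and a two-sided exact permutation test gave p = 0.5. Without the 7 cells KO3 had 61.5% and the KO mean was 73.9 ± 11.3%, again with an exact permutation p of 0.5. In each genotype the library with the fewest tanycytes (WT3, KO3) had the lowest ventral share. Among all tanycytes the KO library of every number had a lower ventral share than its WT counterpart, which the unpaired test does not use.

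For the comparison along this range only WT1, WT2, KO1 and KO2 had at least 10 cells on each side. Of 1772 genes tested with edgeR with the library as a block, with both subtype lists and the rule genes left out, 132 (7.45%) were higher in ventral-leaning and 131 (7.39%) in dorsal-leaning cells, with a median gene at 0.01. These counts were the same without the 7 cells, while DESeq2 called 59 higher and 19 lower, edgeR without a filter on low counts 199 and 46, and edgeR on cells thinned to 1500 UMIs 46 and 20, so the even split did not hold under these settings.

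Ventral-leaning cells were higher in Dlk1, Fndc3c1 and Adamts1 and in a block of early response genes. Fndc3c1 stood at 457, 703, 429.9 and 172 CPM in the ventral-leaning cells of WT1, WT2, KO1 and KO2 and had no UMI in any dorsal-leaning sum, at least 30.8-fold higher against a floor of 3 UMIs over the group. Dlk1, an imprinted Notch-related membrane protein, stood at 604, 482, 1271 and 899.9 CPM against 0, 0, 0 and 18.7 CPM, with 374 UMIs against 1 and a ratio of 173 (30.9 to 6867). Adamts1, a secreted protease, had 195 UMIs against 1, a ratio of 90.4 (16.04 to 3589). The sides did not overlap in these genes. Rgcc, a cell cycle regulator listed among tanycyte genes, stood at 1033, 1054, 953 and 297 CPM against 103, 109, 63.4 and 18.7 CPM, a log2 difference of 3.51 ± 0.32 (edgeR adjusted p = 3.62e-26). Cldn10 was 2.70 higher, at 875, 976, 1019 and 546 CPM against 80.2, 0, 275 and 149 CPM.

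Growth factor genes leaned ventral, with 4 of 5 tested higher and none lower and a median of 0.95, beside 7.45% higher over all genes tested. Igfbp5 stood at 525, 612, 1178 and 632 CPM against 206, 363, 232 and 261 CPM (log2 difference 1.51), and Vegfa, a growth factor of blood vessels, was 1.30 higher. The calls of Vegfa, Fgfr1 and Ptn were lost with DESeq2 (adjusted p = 0.247, 0.462 and 0.194) and without WT1, those of Vegfa and Fgfr1 also without KO1 and those of Fgfr1 and Ptn also without WT2, so of the 4 only Igfbp5 kept its call in every alternative run. Aldoc, at 5387, 2902, 2402 and 4107 CPM against 2131, 1270.4, 1246 and 1754 CPM, was 1.22 higher. Of the 8 tested genes of the mitochondrial genome, 7 were higher, with a median of 0.66. Both tested neuronal genes were higher as well, Snhg11 by 2.35 and the long noncoding RNA Meg3 by 1.03. The part of neuronal RNA in these sums was not tested.

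Every tested immediate early gene was higher in ventral-leaning cells, 11 of 11 with a median of 3.40, beside the 7.45% of all tested genes. Fos stood at 6319, 6429, 6953 and 5016 CPM in the ventral-leaning cells of WT1, WT2, KO1 and KO2 and at 939, 399, 1923 and 1698 CPM in the dorsal-leaning cells, a log2 difference of 2.37 ± 0.18 (edgeR adjusted p = 4.73e-35). Atf3, a stress-responsive factor, stood at 1417, 1171, 1682 and 737 CPM against 22.9, 0, 63.4 and 0 CPM, a log2 difference of 5.73 ± 0.38 (edgeR adjusted p = 4.71e-47). Dusp1, a phosphatase of MAP kinases, stood at 954, 1132, 1140.2 and 679.7 CPM against 34.4, 0, 127 and 37.3 CPM, a log2 difference of 4.21 ± 0.33 (edgeR adjusted p = 5.80e-34). Every ventral-leaning sum exceeded every dorsal-leaning sum for these genes, in both genotypes. As a share of all UMIs, the list made up 2.40%, 2.31%, 2.51% and 1.53% in the ventral-leaning and 0.241%, 0.123%, 0.467% and 0.396% in the dorsal-leaning cells. Median depth was 1789 UMIs in ventral-leaning and 1577 UMIs in dorsal-leaning cells. With cells thinned to 1500 UMIs 10 of 10 tested members were higher, and with DESeq2 10 of 11. Socs3, an inhibitor of cytokine signalling, and Klf2, a Krüppel-like factor, which are not on the list, were higher by 4.56 and 4.25.

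Because these genes moved together, their promoters were searched for TGACG, a part of the binding motif of CREB and ATF factors, and for the whole motif TGACGTCA, which contains it, on both strands of the 250 bases before the start site given by RefSeq (GRCm38.p6). Of the 12 genes, 10 had an entry. TGACG was found in 7 of the 10 and in 17.8% of 32851 promoters of all genes, and TGACGTCA in 2 of the 10 (20%) and in 1.55% of all. The 4 promoters below are shown because they hold matches and belong to genes with large differences, or to Fos as the most studied of the list. Each reads 5′ to 3′ on the strand of the gene, with the motif in capitals (CGTCA is TGACG on the other strand). They are the minus strand of chr1:191183334-191183583 (Atf3), the minus strand of chr17:26508473-26508722 (Dusp1), the minus strand of chr1:134079156-134079405 (Btg2) and the plus strand of chr12:85473640-85473889 (Fos).
Atf3: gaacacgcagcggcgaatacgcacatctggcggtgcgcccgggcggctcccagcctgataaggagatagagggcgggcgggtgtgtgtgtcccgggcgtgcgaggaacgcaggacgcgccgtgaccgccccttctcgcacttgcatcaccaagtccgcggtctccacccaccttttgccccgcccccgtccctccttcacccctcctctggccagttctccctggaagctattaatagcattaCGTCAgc
Dusp1: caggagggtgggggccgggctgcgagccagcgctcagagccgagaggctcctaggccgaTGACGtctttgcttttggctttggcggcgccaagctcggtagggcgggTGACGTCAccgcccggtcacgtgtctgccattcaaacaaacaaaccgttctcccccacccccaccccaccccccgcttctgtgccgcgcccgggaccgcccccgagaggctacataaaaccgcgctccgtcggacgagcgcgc
Btg2: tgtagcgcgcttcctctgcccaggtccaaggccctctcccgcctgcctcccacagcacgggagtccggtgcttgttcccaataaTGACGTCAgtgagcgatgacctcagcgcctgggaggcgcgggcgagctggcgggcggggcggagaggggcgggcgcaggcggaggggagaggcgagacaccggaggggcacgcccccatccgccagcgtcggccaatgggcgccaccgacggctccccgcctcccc
Fos: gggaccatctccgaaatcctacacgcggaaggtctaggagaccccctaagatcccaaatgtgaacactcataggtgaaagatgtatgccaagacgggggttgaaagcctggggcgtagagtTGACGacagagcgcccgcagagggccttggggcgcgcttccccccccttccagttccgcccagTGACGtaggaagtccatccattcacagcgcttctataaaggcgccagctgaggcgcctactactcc
The nearest match of TGACG on either strand began 7 bases before the start in Atf3, 140 in Dusp1, 163 in Btg2 and 66 in Fos. In Dusp1 and Btg2 this match is the CGTCA that ends TGACGTCA, so the capitals begin slightly earlier. A match describes these letters only and is neither a measured site nor a cause.

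Dorsal-leaning cells were higher by smaller factors. Cpe, the carboxypeptidase that processes peptide precursors, stood at 3482, 2795, 2809.9 and 2873 CPM in the dorsal-leaning cells of WT1, WT2, KO1 and KO2 and at 1214, 872, 1149.5 and 1015 CPM in the ventral-leaning cells, a log2 difference of -1.46 ± 0.18 (edgeR adjusted p = 5.22e-14). Pcp4, a calmodulin-binding protein, stood at 206, 363, 254 and 298 CPM against 28.2, 78.1, 93.5 and 38.3 CPM (log2 difference -2.25 ± 0.36). Ephb1, a receptor of ephrins, differed by -1.97, Ramp1, a co-receptor of calcitonin family peptides, by -1.84 and Slc38a1, a glutamine transporter, by -1.50. The sides did not overlap for Cpe, Pcp4, Ephb1, Ramp1 or Slc38a1.

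Of 11 tested radial glia genes, 1 was higher in ventral-leaning cells (Hes1, by 0.77) and 3 in dorsal-leaning cells. The shares over all genes tested were 7.45% and 7.39%. Vim stood at 1111, 1016, 993 and 1101 CPM in the dorsal-leaning against 649, 586, 617 and 613 CPM in the ventral-leaning cells, a log2 difference of -0.75 ± 0.20 (edgeR adjusted p = 0.00229). DESeq2 did not call Vim (adjusted p = 0.124), Hes1 (0.154) or Id4 (0.22). Hes1 also lost its call with edgeR without WT1, WT2 or KO1, Vim without WT1 and Id4 without WT2. The others were Id4, an inhibitor of differentiation, at -0.84 and Ptprz1, a receptor phosphatase that binds pleiotrophin, at -0.88. Clu was at -1.14 and Pltp at -1.50, but KO2 went the other way for both, with 517 against 448 CPM of Clu and 153 against 93.3 CPM of Pltp, and Pltp was not called by DESeq2 (adjusted p = 0.102) or by edgeR without WT2 (adjusted p = 0.0933). None of the 4 tested ependymal genes passed, with 1 positive, 3 negative and a median of -0.49. Lrriq1 and the cilia genes Ak7 and Drc1, which are not on that list, were called higher in dorsal-leaning cells. Over the libraries compared, the log2 ratio was -2.66 to -0.85 for Lrriq1, -2.13 to -0.56 for Ak7 and -2.41 to -0.57 for Drc1. The calls of Ak7 and Drc1 were lost under some alternative. Of 4 tested astrocyte genes 1 was higher in dorsal-leaning cells, the glutamate transporter gene Slc1a2 at -1.26, and the median of the 4 was -0.54. The dorsal list, which holds the astrocyte gene Agt, summed to 500.2 CPM in tanycytes and 3794 CPM in astrocytes, and the part of astrocyte RNA in the dorsal-leaning sums was not tested. Without WT1 the count of called genes was 89 and without WT2 160, and 1 cell of KO2 held 41.9% of the ventral-leaning UMIs of its library.

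**Figure D4:**
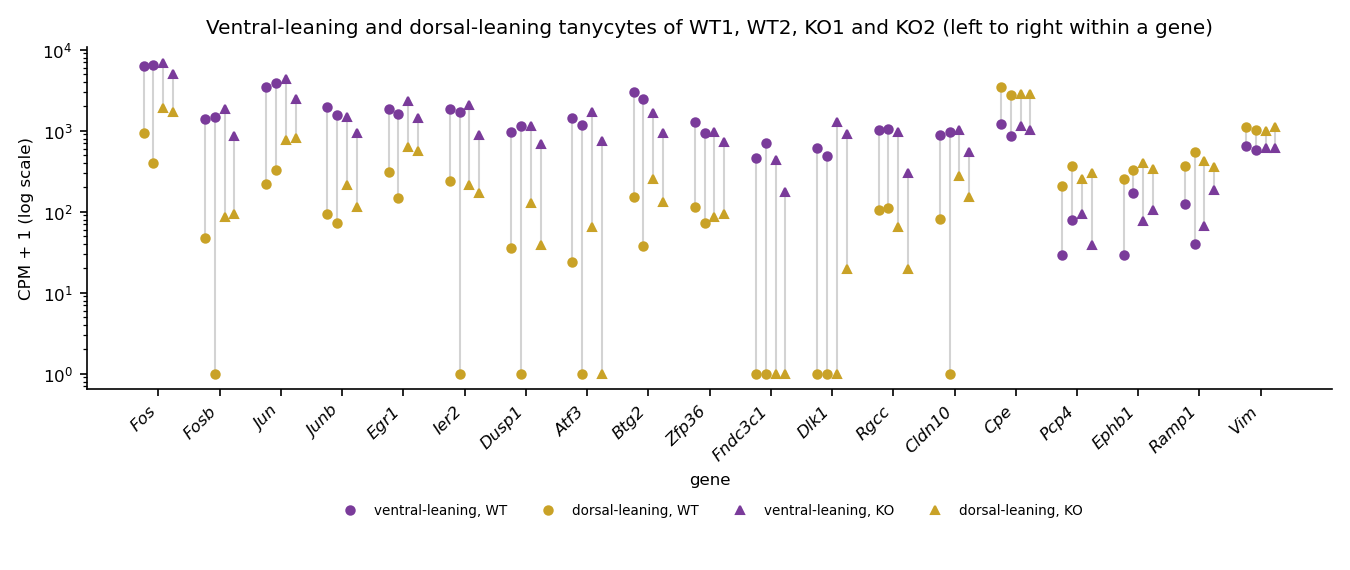
Level of 19 genes in ventral-leaning and dorsal-leaning tanycytes of WT1, WT2, KO1 and KO2. The vertical axis is CPM plus 1 on a log scale, and a line joins the 2 sides of a library. Fos is higher on the ventral side in all 4 libraries, and Cpe and Vim are higher on the dorsal side in all 4.

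The last comparison asked how loss of IDOL changed the tanycytes. Mylip itself (chr13:45389742-45412022) had 5, 1 and 0 UMIs in the tanycytes of WT1 to WT3 and none in those of KO1 to KO3, at least 1.96-fold lower in KO against a floor of 3 UMIs over the group. The counts had the direction of the label, but at this depth they were too few to check it. WT3 had no Mylip UMI either.

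Tanycytes made up 4.52%, 4.11% and 2.06% of the passing cells in WT1 to WT3 and 3.56%, 3.23% and 1.48% in KO1 to KO3. The mean was 3.56 ± 1.32% (SD, n = 3) in WT and 2.76 ± 1.12% in KO, and the groups overlapped (two-sided exact permutation p = 0.5). Each KO library lay below the WT library of its number, and the test did not pair them. Without the 7 cells the means were 3.53 ± 1.30% and 2.66 ± 1.29%, also with an exact permutation p of 0.5. With every cell thinned to 500 UMIs they were 1.96 ± 0.930% and 1.47 ± 0.628%. A smaller share of cells and less marker RNA per cell cannot be told apart by this rule.

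No gene was called in KO tanycytes by edgeR at an adjusted p of 0.05 (0 of 3337 tested, 0.0%), and DESeq2 called none, while edgeR without a filter on low counts called 73. At an unadjusted p below 0.05 there were 109 genes (3.27%), 71 of them higher and 38 lower in KO. Without the 7 cells edgeR again called none of 3345, with 135 at an unadjusted p below 0.05. Counts were also simulated with the means and depths of these sums and a fixed dispersion that was not estimated from these libraries. There the same test recovered 14% of genes changed 2-fold and 65% of genes changed 4-fold. Changed genes dropped by the filter on low counts were taken as missed. In that setting most 2-fold changes were not called, and the power with the spread of these libraries was not measured.

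The genes with the smallest p are given as values. Fam189a2, a membrane protein, stood at 76.2, 43.7 and 92.4 CPM in WT1 to WT3 and at 178, 202 and 112 CPM in KO1 to KO3, which gave 1.29 ± 0.36 as log2 fold change (edgeR adjusted p = 1.00). Marcks, a substrate of protein kinase C, stood at 102, 157 and 55.4 CPM in the WT and at 249, 249.7 and 193 CPM in the KO libraries (1.10 ± 0.34). Rpl35a, a ribosomal protein, stood at 83.4, 87.4 and 73.9 CPM and at 178, 166 and 163 CPM (1.05 ± 0.31). In these genes every KO library was above every WT library, yet none passed the adjustment.

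Btg2 stood at 2024, 1729.8 and 1885 CPM in the WT and at 1133, 636 and 1139 CPM in the KO libraries, a log2 fold change of -0.91 ± 0.30, and of -1.09 without the 7 cells. Penk, the precursor of enkephalin, stood at 247, 253 and 259 CPM and at 71.2, 172 and 112 CPM (-1.05 ± 0.34), but 1 of the 7 cells carried much of it in WT2, which had 108 CPM without that cell. Mgst1, a microsomal glutathione transferase, stood at 646, 708 and 776 CPM and at 427, 505 and 193 CPM (-0.86 ± 0.30). Every KO library was below every WT library for these genes among all tanycytes, with an edgeR adjusted p of 1.00.

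Ptgds had the smallest p of the genes higher in KO, and it rested on KO3. It stood at 163, 175 and 111 CPM in the WT and at 113, 137 and 18993 CPM in the KO libraries, a log2 fold change of 5.50 ± 1.41. KO3 had 373 CPM without the 7 cells, and the fold change was then 0.14 ± 0.38. Nbl1, a secreted BMP antagonist, and Rspo3, a Wnt agonist, were likewise highest in KO3, at 936 and 763 CPM, and their fold changes of 2.86 and 2.19 were 0.88 and 1.32 without the 7 cells. mt-Nd3, which encodes part of respiratory complex I, had no UMI in the WT libraries and 18, 33 and 2 UMIs in KO1 to KO3, at least 18.0-fold higher in KO, and the 2 UMIs of KO3 lay in the 7 cells.

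No member of any list was called between the genotypes. Of 13 tested tanycyte genes outside the rule, 2 had a positive and 11 a negative fold change, with a median of -0.24 beside 0.00 over all genes tested. Without the 7 cells 4 were positive and 9 negative, with a median of -0.18. Of 73 ribosomal protein genes 62 were positive, with a median of 0.24, and 48 of 72 were positive without the 7 cells, with a median of 0.10. The 12 immediate early genes had a median of -0.06, with 5 positive and 7 negative. This changed without the 7 cells, to 3 positive and 9 negative with a median of -0.33. At an unadjusted edgeR p below 0.05 there were then 3 of the 12, beside 135 of 3345 over all genes tested. Of the receptors that IDOL marks for breakdown, Lrp8 (ApoER2) stood at 32.6, 69.9 and 73.9 CPM in the WT and at 101, 89.2 and 10.2 CPM in the KO libraries (0.57 ± 0.55). Vldlr was too low to be tested, at 0, 0 and 18.5 CPM in the WT and at 0, 11.9 and 0 CPM in the KO libraries. Apoe, a ligand of both, stood at 13265, 9811 and 14118 CPM and at 9321, 10845 and 9431 CPM (-0.30 ± 0.27). The KO3 value includes the 7 cells, and Apoe without them is not reported here. The LXR targets, a list that holds Apoe, summed to 11231 CPM in KO3 and to at most 16428 CPM in any library. Once the 7 cells were left out, the highest library sum of that list was 19342 CPM, so the Apoe levels may depend on them.

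**Figure D5:**
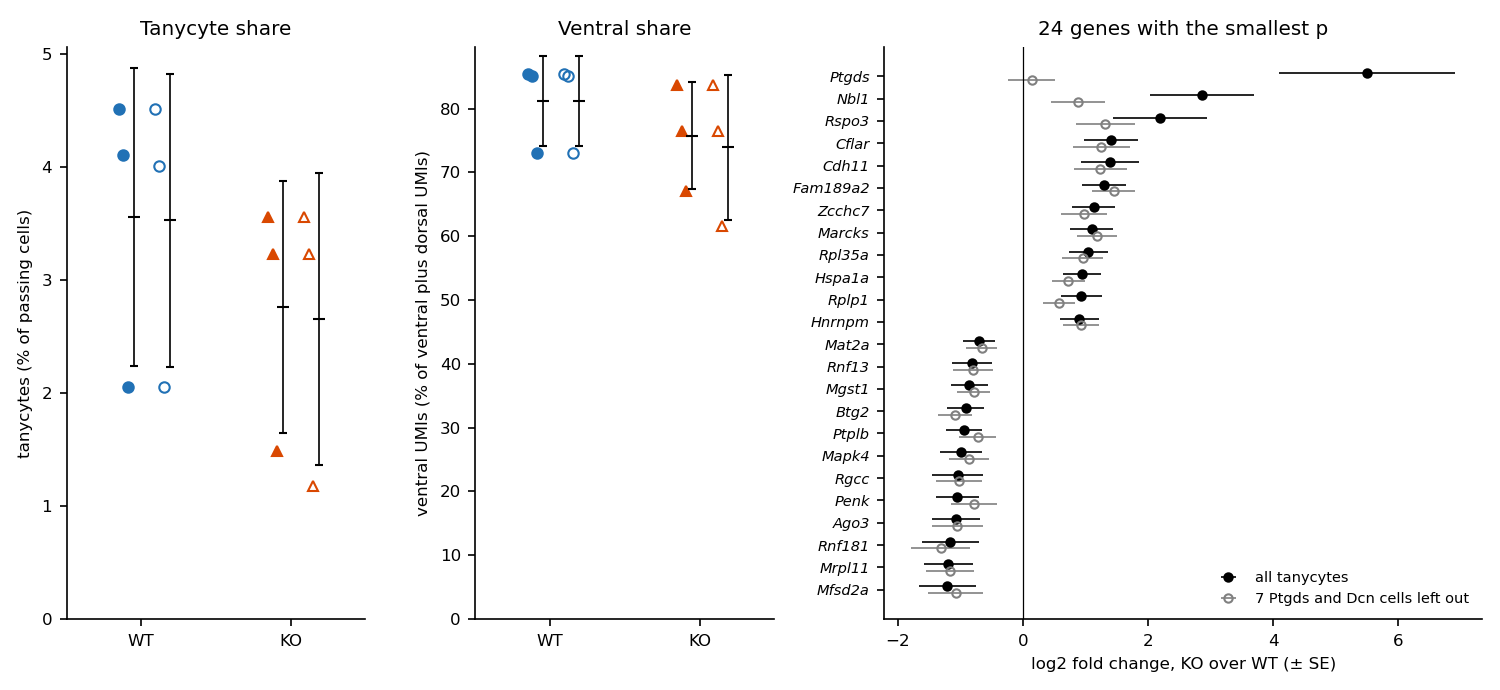
Tanycytes in WT and KO. The first panels show the share of passing cells and the ventral share of subtype UMIs in percent for each library, with bars for mean ± SD, filled for all tanycytes and open without the 7 cells, and the last panel shows the log2 fold change ± SE of 24 genes. The share overlaps between groups, from 2.06% to 4.52% in WT and from 1.48% to 3.56% in KO, and the error of Ptgds is wide, with KO3 alone high.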

How the data were processed

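The authors deposited 1 table for the 6 libraries, whose values are unnormalized UMI counts with genes as rows and cells as columns. Per the submitters' processing notes bcl2fastq, STAR 2.5.0c and the builds mm10 and GRCm38 were used. The counting program, annotation, strand and choice of barcodes are not given in the sources used here. Gene coordinates came from GENCODE M21, matched by symbol.

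Members and gene lists were chosen with earlier results of these data known. Counts were summed per library and cell set, since cells are not replicates, and tested with the quasi-likelihood F-test of edgeR 4.0.16 in R 4.3.3 (TMM scaling, filterByExpr, Benjamini-Hochberg over all genes tested at 0.05). DESeq2 1.42.0 was an alternative. Cell sets of a library were compared with the library as a block. Levels are CPM of all UMIs of a set, and log2 differences come from the TMM-scaled fits. Doublets were called with Scrublet in scanpy 1.11.5 (Python 3.11.15, expected rate 5%) and not removed. Shares were compared with exact permutation tests in scipy 1.17.1, for which 3 against 3 libraries give no p below 0.1.

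The 12 rule genes were left out of the KO test after a first fit had been seen, and Mylip was tested whatever its count. Named genes were the 12 with the smallest p in each direction (KO), or the 12 with the largest fold past the threshold at 200 CPM in the higher set and in one direction in every library, with list members, of which the text gives a selection. Tested on simulated counts, the fits recovered 33% of 2-fold and 77% of 4-fold changes for the astrocyte comparison (3585 genes), 33% and 68% for the ependymal (2364 genes) and 25% and 68% for the ventral and dorsal comparison (1763 genes). All simulations used the same fixed dispersion, so these shares hold for that setting only. Alternatives that thin cells to 1500 UMIs, ask for at least 1000 UMIs or at most 1 astrocyte UMI, or leave out the 7 Ptgds or Dcn cells were chosen after seeing the data. Some genes of the lists are not reported here.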

Additional observations from a re-analysis of the deposited data

Results flagged for a closer look

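In 148 log2 ratios of named genes, each taken within a library, 1 library lay far from the others in 11, where chance alone would flag about 5%. Between tanycytes and astrocytes these were Slc7a10, an amino acid transporter, in KO2 at -6.03 (others -4.63 to -3.80), Acsl3 in KO3 at -3.02 (others -2.54 to -2.25) and Slc4a4, a bicarbonate transporter, in KO3 at -2.69 (others -3.77 to -3.51).

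Between tanycytes and ependymal cells they were Fosb, an immediate early factor, in KO2 at 3.37 (others 1.02 to 1.67). KO3 lay apart for Mia at -2.11 (others -1.15 to -0.63) and for Hes1 at 1.37 (others 2.39 to 2.89). It also lay apart for Fam183b, a cilia gene, at -3.14 (others -2.08 to -1.71), for Clu at -0.204 (others -2.97 to -2.26) and for Nnat, an imprinted proteolipid, at -0.171 (others 0.578 to 1.01). Cdhr3, a cadherin-related protein, lay in WT3 at -4.00 (others -8.06 to -6.81), but this rests on 1 tanycyte UMI in WT3 and 0 in the other libraries, so that the ratios are set by the prior count and show no library apart. The 7 cells with Ptgds or Dcn, most of them in KO3, are part of these sums. Between ventral-leaning and dorsal-leaning cells Pltp lay at 0.623 in KO2 (others -2.30 to -2.17).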

How the results depend on the processing

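The calls between genotypes stayed at 0 with DESeq2, other scaling and other cell limits, but 73 genes were called without a filter on low counts, and leaving out 1 library gave 0 to 2 (2 without KO1, 1 without KO3). With the replicate block 0 were called. Same-numbered libraries did not deviate together (correlations of 0.033, -0.056 and 0.071), so the numbers are not taken as a pairing. The log2 fold change of Ptgds was -0.36 without KO3 and at most 6.08 with another library left out, 1.70 with the replicate block, and it was called without KO1 (edgeR adjusted p = 0.0267). The astrocyte comparison called 2493 genes without a filter, 908 with at least 500 genes per cell, 638 with at least 1000 UMIs and 785 with at most 1 astrocyte UMI, and 1160 to 1683 with 1 library left out. The ependymal comparison called 2597 without a filter, 346 thinned to 1500 UMIs and 1014 to 1403 with 1 library left out. The ventral and dorsal comparison called 78 with DESeq2, 66 of 331 thinned to 1500 UMIs and 89 to 284 with 1 library left out. Those fits used 3 libraries, although under 4 no test had been planned, and the stricter marker rules could not be fitted there for lack of cells. For the thinned and deeper sets fewer genes were tested, and otherwise the cause was not tested. The KO minus WT difference in share ranged from -1.55 to -0.165 percentage points and in ventral share from -9.61 to -1.18 with 1 library left out. Of the named genes, 1 of 58 lost its call under some alternative against astrocytes (Cldn10), 1 of 45 against ependymal cells (Vim) and 11 of 45 between ventral-leaning and dorsal-leaning cells (Ak7, Ctnnb1, Drc1, Fgfr1, Hes1, Id4, Pltp, Ptn, Rarres2, Vegfa and Vim). Depth limits Mylip and Vldlr, with few UMIs per library.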
